A study of Mus musculus with 10 samples.

Results

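The regions described are wide stretches of open chromatin that 2 mouse B lineage cell types have in common. ATAC-seq marks DNA that a transposase can reach, and a peak is a stretch where its cuts pile up above the surroundings. A peak was a member if it covered at least 4000 bases, lay on chromosomes 1 to 19 and overlapped a peak of the other cell type by at least 1 base. The 2 deposited lists held 60343 peaks, and 2402 of them were members, 1524 of 30475 in the plasma cell list and 878 of 29868 in the naive B cell list. Joined across the lists, the members formed 1835 loci, out of 19597 loci of any width that both cell types shared.

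The plasma cells whose open chromatin was profiled were sorted directly from bone marrow as CD138+B220-IgD-CD4-CD8-Gr1-Ter119-. The naive B cells were sorted from spleen as CD23+IgD+. Both came from C57BL/6 wild-type mice and 50000 cells went into each library, so the cell types also differ in the organ they came from. Chromosome contacts were measured by tethered conformation capture (TCC). The plasma cell contact library carries the genotype label Blimp-GFP mice, and its protocol gives CD23+ spleen cells stimulated with 10 µg/ml lipopolysaccharide for 3 days and sorted for GFP, although its source label says ex vivo. The naive contact library was of CD23+ spleen cells of wild-type mice. The plasma cell RNA library is labelled in vitro activated, while its protocol describes the bone marrow sort, and the naive RNA library was of sorted CD23+IgD+ spleen cells. No assay was replicated, with 1 library of either cell type, so differences have no replicate check and no test, and intervals cover counting error only.

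A naive B cell is a resting lymphocyte that has not met its antigen, and a plasma cell is its terminal product, devoted to secreting antibody. Blimp-1, the factor reported by the GFP, drives that change and silences much of the B cell program. Open chromatin marks promoters and enhancers, and long open stretches can hold several such elements side by side. Chromosomes also fold into an open compartment A, rich in active genes, and a closed compartment B.

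Every naive B cell and plasma cell marker measured was higher in the RNA library of its label, except Sdc1. Of 7 plasma cell markers measured, the summed level was 8259 TPM in plasma cells and 1031 TPM in naive B cells. The largest were Mzb1 and Jchain, with 3554 and 3026.5 TPM in plasma cells. Prdm1, which encodes Blimp-1, had 249 TPM in plasma cells and 2.29 TPM in naive B cells, and Sdc1, which encodes the sorting marker CD138, had 5.38 and 11.1 TPM in plasma and naive B cells. The 5 naive B cell markers measured summed to 442 TPM in plasma cells and 4814 TPM in naive B cells, with Pax5, the B cell identity factor, at 15.7 and 346 TPM in plasma and naive B cells. The 3 myeloid markers summed to 0.548 TPM in plasma cells and 108 TPM in naive B cells, the 3 T cell markers to 0.109 and 9.29 TPM, and the 2 globin genes to 0 and 32.6 TPM, each in plasma and naive B cells. These levels are of the RNA libraries, and what other cell types added to the ATAC libraries was not tested. No genome or gene annotation of the files' build, mm9, was used here, so the loci are given by position and not by gene.

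Wide peaks were shared more often than peaks in general. In the plasma list 91.4% of the 1667 wide autosomal peaks overlapped a naive peak (95% interval 90.0 to 92.7), against 66.8% of all 29405 autosomal plasma peaks. In the naive list 88.7% of the 990 wide peaks overlapped a plasma peak (86.5 to 90.6), against 69.2% of all 28614. The part of length itself in these shares was not tested. The members covered 7.75 Mb in plasma cells, or 12.5% of the bases of that list, and 4.35 Mb in naive B cells, or 8.08%.

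The threshold cut through a continuous range. In the plasma list the 3 narrowest members measured 4000, 4000 and 4000 bases and the 3 widest shared peaks left out measured 3999, 3999 and 3997 bases. In the naive list the members nearest the threshold measured 4000, 4000 and 4002 bases, and those just outside it 3999, 3999 and 3997 bases. Members had a median width of 4796 bases in plasma cells and 4696 bases in naive B cells, against 2102 and 1806 bases for all shared peaks of the plasma and naive lists.

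More loci were wide in plasma cells than in naive B cells. Of the 1835 loci, 957 held a wide peak in the plasma list alone, 567 in both lists and 311 in the naive list alone. Over all of them the peaks covered a median of 4560 bases in plasma cells and 3991 bases in naive B cells. The loci were chosen by these peak widths and by overlap, so the widths are a description.

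**Figure D1:**
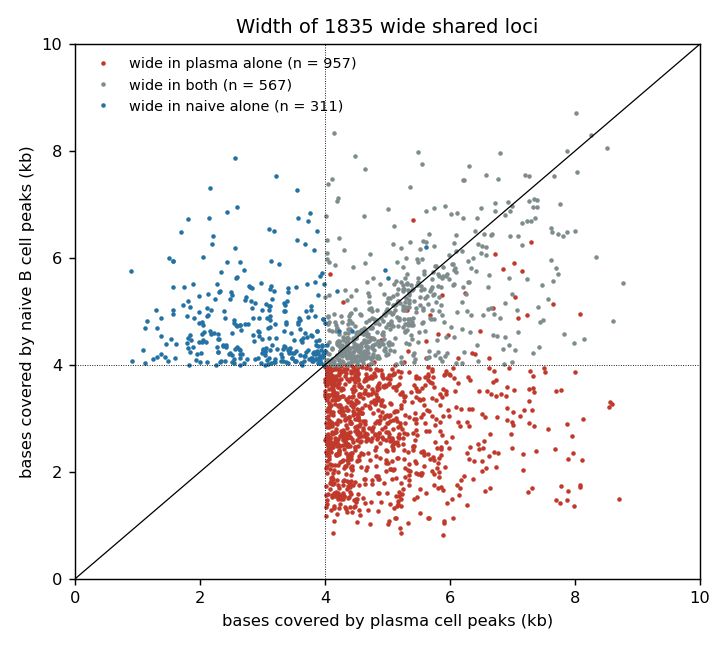
Bases covered by plasma cell peaks (horizontal axis, kb) and by naive B cell peaks (vertical axis, kb) at each of the 1835 wide loci, 1 point per locus, with equality as a solid line and 4 kb as dotted lines. The 957 loci wide in plasma alone fill the area to the right, the 311 wide in naive alone the area at the upper left, and the 567 wide in both lie near the line.

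The width ratio, plasma over naive covered bases, was called wider at 1.5 or more and narrower at its inverse or less. At that threshold 630 wide loci, 34.3%, were wider in plasma cells, beside a background of 13.8% among all shared loci. Narrower in plasma cells were 188, 10.2%, beside a background of 4.09%. The rule used these widths, so nothing about the loci is read from the excess. Among the 2660 shared loci whose widest peak had from 3000 to below 4000 bases 21.7% were wider and 6.32% narrower. The median log2 width ratio was 0.25 at wide loci (0.21 to 0.30) and 0.17 at all shared loci.

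Which cell type had the longer stretch followed the lists as a whole. Plasma peaks covered more bases than naive peaks at 71.6% of wide loci and at 71.8% of all shared loci. The share of loci called wider grew with the widest peak of the locus, 29.2% of 1050 loci from 4000 to below 5000 bases, 40.2% of 485 to below 6000, 40.4% of 183 to below 7000 and 46.2% of 117 to below 9000. The share called narrower was 9.43%, 11.3%, 12.6% and 9.40% in the same classes. Class and call were both read from these widths, so the shares by class are a description. Among all shared loci that were not wide, 11.7% were called wider. Among those whose widest peak had from 3000 to below 4000 bases, 21.7% were. The rise was therefore not particular to wide loci. The peak lists give no sequencing depth, so its effect on the widths is unknown.

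**Figure D2:**
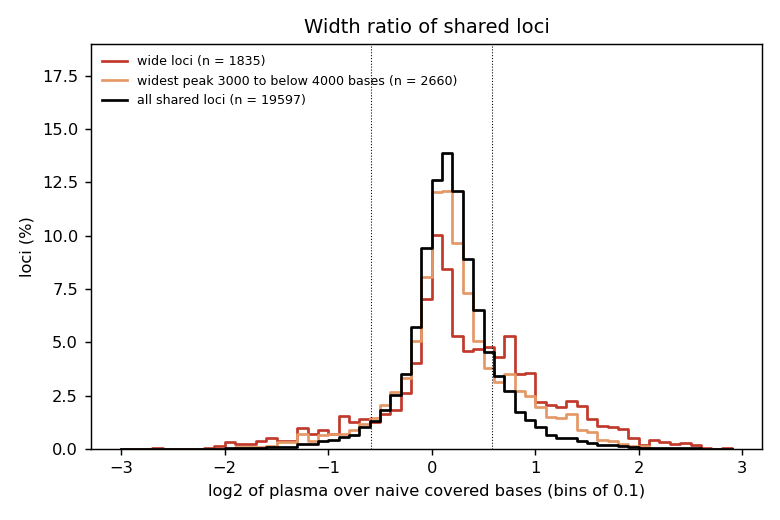
Distribution of the log2 ratio of plasma over naive covered bases (horizontal axis) as the percentage of loci per bin of 0.1 (vertical axis) for wide loci, loci whose widest peak had from 3000 to below 4000 bases and all shared loci, with dotted lines at a 1.5-fold difference. The wide loci have a lower peak and longer tails, 34.3% past the right line and 10.2% past the left one.

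At loci wide in both lists, where the choice set a lower bound on both widths, the extents were close. Plasma peaks there covered a median of 5048 bases and naive peaks 4803 bases, the median log2 ratio was 0.05, and 58.0% of the 567 loci had widths within 10% of each other, against 29.8% of all shared loci. The pair with the longest smaller width lay at chr17:71195911-71204239 and covered 8261 bases in plasma cells and 8289 bases in naive B cells. The next, chr4:102239815-102248319, covered 8505 bases in plasma cells and 8058 bases in naive B cells. The locus chr10:7228884-7237645 was made of 2 peaks in each list and covered 8017 bases in plasma cells and 8716 bases in naive B cells. The others of the 5 were chr16:49852543-49860539, with 7867 bases in plasma cells and 7997 in naive B cells, and chr8:26207974-26216005, with 8032 and 7607 bases in plasma and naive B cells.

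The most unequal loci differed several fold in length. The largest ratio was at chr1:87853562-87859444, where the plasma peak covered 5883 bases and the naive peak 826 bases, a 7.12-fold difference. It was followed by chr14:26432369-26437589, with 5221 bases in plasma cells and 848 in naive B cells. At chr11:86622583-86630570 the peaks covered 7988 bases in plasma cells and 1361 bases in naive B cells. At chr10:94320559-94329264 they covered 8706 bases in plasma cells and 1493 bases in naive B cells, and at chr1:20983480-20989385 they covered 5906 and 1038 bases in plasma and naive B cells. All 5 but the last lay in compartment A of both contact maps. The last had a component of 0.206 SD in the plasma map and -0.279 SD in the naive map. The naive peaks of these 5 loci had authors' scores of 62.73, 51.7, 98.77, 205.43 and 58.62, in the order given. Several thus lay near the lower end of the naive list. The plasma peaks scored 114.32, 210.04, 63.45, 59.28 and 170.56, in the same order.

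In the other direction the smallest ratio was at chr13:13057253-13063012, where the plasma peak covered 894 bases and the naive peak 5760 bases, 6.44-fold longer in naive B cells. Peaks covered 917 bases in plasma cells and 4074 bases in naive B cells at chr10:129758782-129762855. They covered 1112 bases in plasma cells and 4694 bases in naive B cells at chr2:45132051-45136744. At chr10:37039320-37044135 they covered 1151 bases in plasma cells and 4816 bases in naive B cells, and the component of that bin was 0.0528 SD in the plasma map and 0.923 SD in the naive map. The last of the 5, chr7:58216924-58222929, covered 1505 bases in plasma cells and 6006 bases in naive B cells and lay deep in compartment B of both maps. The plasma peaks of these 5 loci scored 60.8, 218, 50.3, 90.6 and 61.4, in the order given, so several again lay near the lower end.

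The widest single members were long and weak. The widest plasma peak, chr18:84253814-84262588, had 8775 bases and a score of 63.3, over a naive peak of 5536 bases. The authors' score, given by their peak caller, is used here only to rank peaks within a list, where it reached 3100 at most. The next widest plasma peaks after it had 8706 bases at chr10:94320559-94329264, 8600 at chr10:17440259-17448858, 8593 at chr4:33328369-33336961 and 8552 at chr1:138012239-138020790, with scores between 54.16 and 101.36. The widest naive peak, chr6:17583297-17591635, had 8339 bases and a score of 72.64, over a plasma peak of 4148 bases. Beside the naive peaks of chromosomes 17 and 4 given above, the 5 widest included 7997 bases at chr16:49852543-49860539 and 7985 bases at chr2:78705423-78713407.

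Scores peaked below the width threshold and fell with width above it, in each list by itself. Among shared plasma peaks the median score was 203 from 1000 to below 2000 bases, 626 to below 3000, 637 to below 4000, 509 to below 5000, 362 to below 6000, 252 to below 7000 and 116 to below 9000 bases. Among shared naive peaks it was 217, 585, 558, 447, 325, 225 and 140 in the same classes. Of the 95 plasma members of 7000 bases or more, 37.9% scored under 100, and of the 32 such naive members 8 did. The widest members thus scored lower than peaks of 2000 to below 4000 bases in their own list.

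**Figure D3:**
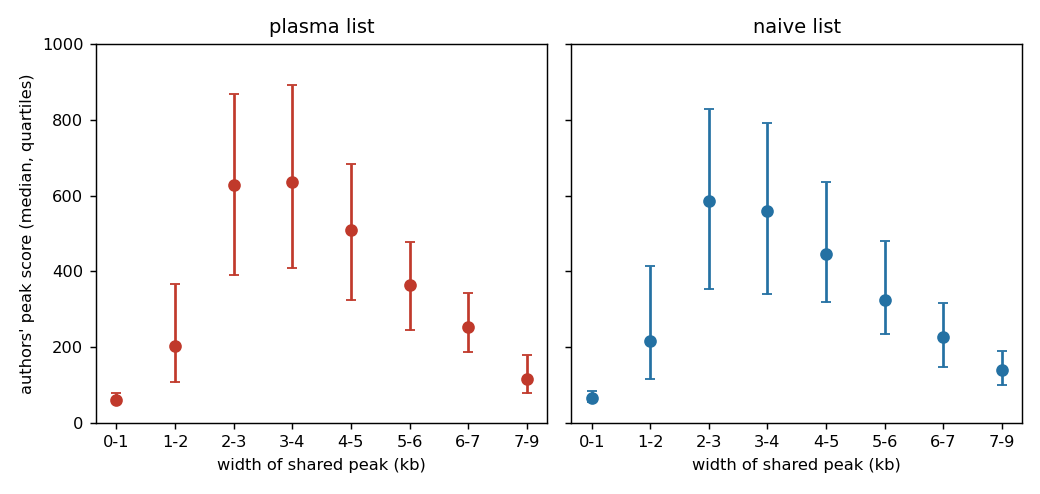
Authors' peak score (vertical axis, points are medians and bars the quartiles) by width of shared peaks (horizontal axis, kb), for the plasma list at the left and the naive list at the right. Medians are highest between 2 and 4 kb and fall to 116 in the plasma list and 140 in the naive list above 7 kb; scores are not compared between the panels.

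Where a locus was wide in 1 cell type alone, the shorter peak usually lay inside the longer one. In the 845 loci wide in plasma alone with 1 peak per list, 84.9% of the naive peaks lay within the plasma peak. Over all 845, nested or not, the plasma peak reached a median of 2060 bases beyond the naive peak, both sides summed. In the 298 such loci wide in naive alone, 76.5% of the plasma peaks lay within the naive peak. Over all 298 the naive peak reached a median of 1860 bases beyond the plasma peak, counted alike. Among the 17658 loci that were not wide and had 1 peak per list, 53.0% of the naive peaks lay within the plasma peak. In 15.3% of those loci the plasma peak lay within the naive peak. Loci wide in 1 cell type alone were chosen for a wide peak in that list and none in the other. That choice favours nesting and extra length, so both are a description of them. The extra length was on 1 side for many of them: at least 90% of it fell on a single flank in 46.9% of loci wide in plasma alone and in 48.7% of loci wide in naive alone. For loci that were not wide, only the reach of the plasma peak beyond the naive peak was counted, whichever peak was longer. At the 14956 of them with such a reach and 1 peak per list, it was one-sided in 45.8%.

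Some wide peaks bridged a gap in the other list. At 113 wide loci, 6.16%, a single plasma peak overlapped 2 naive peaks with a median gap of 503 bases between them, against 0.995% of all shared loci. At 80 of the 113 both naive peaks lay wholly inside the plasma peak. The reverse, 1 naive peak overlapping 2 plasma peaks, occurred at 16 wide loci, 0.872%, against 0.168% of all shared loci, and at 10 of them both lay inside. Width chose the loci, so the excess over all loci is a description. One of the 5 widest plasma peaks was of this kind: the peak of 8552 bases at chr1:138012239-138020790 covered 2 naive peaks that summed to 3304 bases.

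The loci wide in naive alone lay less often in compartment A than those wide in plasma alone. Compartments were read from the contact maps in bins of 500 kb, which did not enter the choice of loci. Of the loci wide in plasma alone 89.6% lay in compartment A of the plasma map (87.5 to 91.5) and 91.5% in that of the naive map (89.6 to 93.2). Of those wide in naive alone 66.9% lay in A of the plasma map (61.2 to 72.3) and 73.4% in A of the naive map (67.9 to 78.4). Loci wide in both stood between them, with 82.8% in the plasma map and 85.9% in the naive map, and all shared loci had 85.7% and 88.4% in the plasma and naive maps. The intervals of the plasma-alone and naive-alone loci do not overlap in either map, but loci in 1 bin share its value, and the intervals, which take loci as independent, are therefore too narrow.

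**Figure D4:**
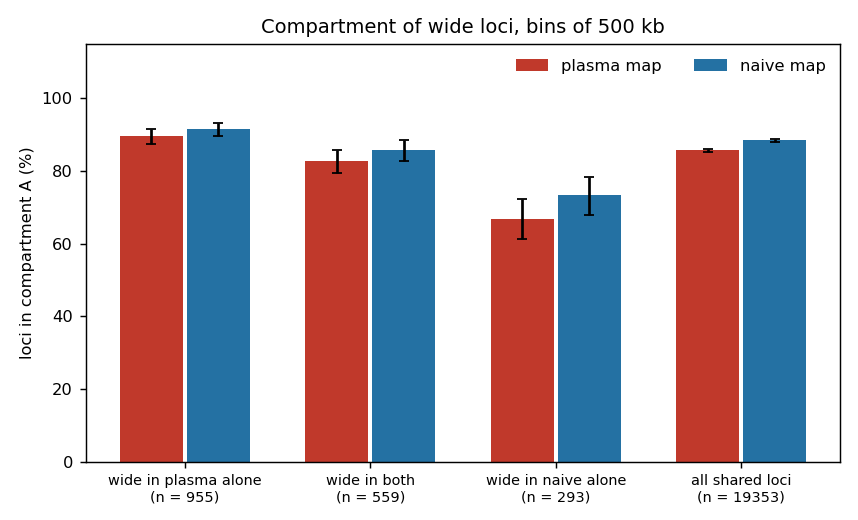
Percentage of loci in compartment A (vertical axis, bars from 0, error bars are exact 95% binomial intervals) in the plasma and naive contact maps for the loci wide in plasma alone, in both and in naive alone and for all shared loci. Loci wide in naive alone stand at 66.9% in the plasma map and 73.4% in the naive map, below the other sets.

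In bins of 2 Mb 56.3% of all wide loci lay in A of the plasma map and 61.1% in A of the naive map. In bins of 500 kb the shares were 83.8% and 86.8%. Neither all shared loci nor the separate kinds of wide locus were computed in bins of 2 Mb. Whether the lower share is particular to wide loci, and whether the order of the kinds holds there, is therefore unknown.

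The same order held for loci below the width threshold. Among shared loci that were not wide, 91.3% of those wider in plasma cells lay in A of the plasma map, against 74.3% of those narrower (70.6 to 77.8). Among wide loci the shares were 90.9% of the wider and 62.2% of the narrower ones (54.5 to 69.5). In the naive map 92.8% of the wider and 69.8% of the narrower wide loci lay in A, against 92.6% and 79.8% of the wider and narrower loci that were not wide. The plasma contact map is of cells stimulated in culture and the plasma peaks are of bone marrow cells, so a difference between plasma and naive maps is not one between the cells whose peaks are described.

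Numbers of peaks near a wide locus leaned to the cell type in which the locus was wide. Within 100 kb, loci wide in plasma alone had a mean of 7.64 plasma peaks and 6.49 naive peaks, a ratio of sums of 1.18. Loci wide in both had 6.45 plasma peaks and 6.27 naive peaks, a ratio of 1.03. Loci wide in naive alone had 4.68 plasma peaks and 5.93 naive peaks, a ratio of 0.790, against 1.08 around all shared loci. The widths of shared neighbours that were not wide themselves followed the same order, with a median log2 ratio of 0.23 around loci wide in plasma alone, 0.14 around loci wide in both and -0.02 around loci wide in naive alone, against 0.18 around all shared loci. Loci below the width threshold showed the same lean: the ratio of neighbouring peaks was 1.22 around shared loci that were not wide and were wider in plasma cells, and 0.829 around those that were narrower. It was therefore not particular to wide loci.

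Neighbour counts spanned a wide range. The most crowded wide locus, chr6:48688321-48692354, had 20 plasma peaks and 16 naive peaks within 100 kb and was itself 4034 bases in plasma cells and 1400 bases in naive B cells. It was followed by chr1:158923380-158928976, with 18 plasma peaks and 15 naive peaks, and chr6:48647923-48653093, with 17 and 16 plasma and naive peaks. At the other end 19 wide loci, 1.04%, had no neighbour in either list, against 2.20% of all shared loci. Of these 19 loci, 8 were wide in naive alone, 6 in both and 5 in plasma alone. The 3 named below are of those wide in both. Among them chr17:39979372-39986326 covered 6955 bases in plasma cells and 6884 bases in naive B cells, with scores of 1244 in the plasma list and 754 in the naive list. The locus chr2:98501260-98508098 covered 6103 bases in plasma cells and 6839 bases in naive B cells, with scores of 1615 and 955 in the plasma and naive lists, and its bin did not pass the filter of the contact maps. These scores are above the upper quartile of shared peaks from 6000 to below 7000 bases, 342 in the plasma list and 316 in the naive list. Whether these positions are repeats or regions that collect excess reads was not tested, since no such annotation of mm9 was used here. A further one, chr6:18794065-18800366, covered 5364 bases in plasma cells and 6302 bases in naive B cells and lay in compartment B of both maps.

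Another wide locus stood within 100 kb of 769 wide loci, 41.9%, and the median distance to the nearest was 165 kb. For shared loci that were not wide, 30.9% had a wide locus within 100 kb, and the median distance to it was 236 kb. Of 218 neighbouring pairs in which each locus was wide in 1 cell type alone, 156 were plasma with plasma, 33 naive with naive and 29, or 13.3%, 1 of each. Of all loci wide in 1 cell type alone, 24.5% were wide in naive B cells. Chains of 3 or more wide loci with gaps of at most 100 kb numbered 87 and held 303 loci. Of these chains 58 held loci wide in plasma alone and none wide in naive alone, 16 the reverse and 13 both kinds.

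The longest chains had 6 loci and differed in make-up. At chr7:117202355-117431391 all 6 loci were wide in plasma alone, and their peaks summed to 32044 bases in plasma cells and 18194 bases in naive B cells. At chr5:105984976-106149685 3 loci were wide in plasma alone and 3 in both, with 33126 bases in plasma cells and 20875 bases in naive B cells. The one chain of 5 loci all wide in naive alone lay at chr7:58200407-58240364, and its peaks summed to 7777 bases in plasma cells and 27848 bases in naive B cells. Its plasma peaks measured 1568 bases at 4 of the 5 loci and 1505 bases at the other, while its naive peaks measured 5021, 4951, 6006, 5936 and 5934 bases. The starts of its loci were 8761, 7756, 8753 and 8754 bases apart, and its plasma scores were 61.4 to 81.7 and its naive scores 67.7 to 97.0. Whether this evenly spaced chain is a repeated sequence, on which reads cannot be placed with certainty, was not tested.

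Every autosome had more wide loci wider than narrower in plasma cells, but not to the same degree. The median log2 width ratio of all shared loci was also positive on every autosome, from 0.09 to 0.23. The direction was therefore not particular to wide loci. The share of shared loci that were wide ran from 6.04% on chromosome 19 to 12.8% on chromosome 1. The median log2 width ratio of wide loci was lowest on chromosome 11, at 0.01, with 17 loci wider and 15 narrower. It was highest on chromosome 15, at 0.48, with 28 loci wider and 6 narrower. Chromosome 11 also had the lowest median among all shared loci, 0.09, and on it 29 loci were wide in plasma alone and 25 in naive alone.

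**Figure D5:**
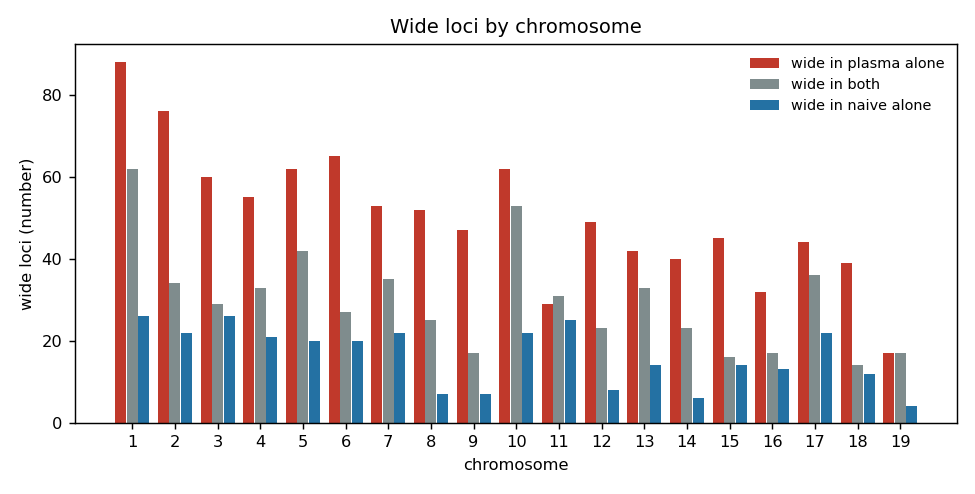
Number of wide loci (vertical axis, bars from 0) on each autosome (horizontal axis), split into loci wide in plasma alone, in both and in naive alone. Plasma-alone loci outnumber naive-alone loci on all 19 chromosomes, by 29 to 25 on chromosome 11.

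Bins with a wide locus met each other across chromosomes more often than the average pair of bins. Each value is the mean contact between chromosomes among the bins of a set, over the mean of all such pairs. Contacts of a set with all other bins were not measured. The 1191 bins of 500 kb that held a wide locus had 1.44 times the mean contact in the plasma map and 1.53 times in the naive map. Bins with peaks and no wide locus had 1.00 times in the plasma map and 1.01 times in the naive map. The 748 bins with no peak had 1.35 times in the plasma map and 1.399 times in the naive map, so a high value was not particular to bins with peaks. The number of peaks differed too, with a median of 24 in bins with a wide locus and 7 in the others. At a like number of peaks the bins with a wide locus stood lower or about level: with 15 to 24 peaks they had 1.31 in the plasma map and 1.402 in the naive map, against 1.44 and 1.53 without a wide locus. With 25 to 34 peaks they had 1.78 and 1.94 in the plasma and naive maps, against 2.06 and 2.20 without one, and with 5 to 14 peaks they had 1.10 and 1.18, against 1.10 and 1.17. With 35 to 49 peaks, 211 bins with a wide locus had 2.41 and 2.62 in the plasma and naive maps, against 3.40 and 4.10 in 70 bins without one. Among bins in compartment A of both maps, not matched for peaks, those with a wide locus had 1.68 in the plasma map and 1.79 in the naive map, against 1.56 and 1.68 without one, at a median of 27 and 18 peaks with and without one. Bins with a locus wide in plasma alone had 1.62 in the plasma map and 1.70 in the naive map, and bins with a locus wide in naive alone had 1.30 and 1.48. These sets were not matched either. Their median was 26 and 19 peaks for plasma alone and naive alone, and 88.3% and 64.5% of them lay in A of the plasma map.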

How the data were processed

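ATAC-seq, RNA-seq and TCC libraries of plasma cells and naive B cells, 1 each, were used; the histone libraries were not analysed here. The build was mm9, and MACS 1.4, Picard, Bowtie, TopHat, HOMER and kallisto are named, per the submitters' processing notes. For other settings, and for any removal of problem regions, the sources used here give nothing. The deposited peak lists give start, end and the authors' score per peak, with no depth. The deposited RNA tables hold the authors' TPM and estimated counts per transcript, 43.5 M in plasma cells and 37.0 M in naive B cells; TPM were summed per gene, 26599 genes, and 20 of 21 markers matched by gene ID. The contact maps hold the authors' balanced contact signal between bins.

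Overlapping plasma and naive peaks were joined to loci, and width is the number of bases covered by a cell type's peaks. The compartment is the leading component, within each chromosome, of correlated contacts after division by their expected value at that distance, in SD, with the sign set by ATAC peak number; 4537 of 4955 bins passed, having at least 0.5 of the median share of nonzero entries. Chromosome starts in the maps were inferred from bins empty in both maps and from the last peak on each chromosome. The rule asked for fewer empty bins at 2 Mb. Maps were scaled to a common mean row sum. Shares carry exact Clopper-Pearson 95% intervals, and medians order-statistic intervals. Joining, width calls and compartments were tested on simulated data with 1 peak per list and the same start in both lists at each locus. Joining of several peaks and of staggered peaks was not tested. The simulated map had contacts within chromosomes only and a known layout. The inferred chromosome starts, the bin filter and the contacts between chromosomes were not tested. Python 3.11.15, NumPy 2.4.6, pandas 2.3.3 and SciPy 1.17.1 were used.

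Named regions were the 5 widest peaks per list, the 5 largest and 5 smallest ratios and the 5 with both widths largest. Also named were the 3 peaks on each side of the threshold, the 3 loci with most neighbours and 3 of the 19 tied at no neighbour. The chains of loci and chromosomes named were chosen after their values were seen. Members and lists were chosen with earlier results of these data known. The design also planned a panel of genes at wide loci with their RNA. It is not reported, because its mm9 positions came from memory and, for most genes, from shifted positions of another build, and no file used here gives mm9 gene positions. The values had been computed before it was dropped. The reference at hand is GRCm38, and no coordinates or sequences were taken from it.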

Additional observations from a re-analysis of the deposited data

How the results depend on the processing

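With 1 library per group no replicate could be left out. No paired analysis was possible because each group has 1 library. Alternatives for genes at wide loci are left out, as that result is. Of 66 alternatives 34 stayed within the interval or spread of the main value and 32 moved. Those for compartments by kind of locus were added after the data were seen. Causes were not tested. Without depth, how far the widths follow it is unknown.

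The share of wide loci called wider in plasma cells was 26.9% at 3000 bases, 41.1% at 5000 bases, 38.2% by the widest single peak, 46.6% at a lower fold threshold, 17.1% at a fold of 2 and 26.6% relative to the median ratio of all shared loci. It was 41.3% among loci wide in the plasma list, 2.16% among those wide in the naive list, where more loci were narrower than wider, and 20.8% where the mean of both widths reached 4000 bases. The share called narrower was 7.92% at 3000 bases, 14.3% at a lower fold threshold, 5.18% at a fold of 2, 12.6% relative to that median, 0.722% among loci wide in the plasma list, 21.4% among those wide in the naive list and 6.09% by the mean of both widths. Loci wide in plasma alone held 611 of the 630 wider calls, and loci wide in naive alone 177 of the 188 narrower ones. Limiting the loci to 1 list drops 1 of these groups, so the shares by list follow from the choice. The median log2 width ratio was 0.19 at 3000 bases, 0.39 at 5000 bases, 0.21 by span and 0.12 by the mean of both widths.

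A wide locus had a median of 7 peaks of both lists within 50 kb, 13 within 100 kb and 43 within 500 kb, against 6, 12 and 44 for all shared loci, so the order turned at 500 kb. In bins of 2 Mb the share of wide loci in compartment A was 56.3% in the plasma map and 61.1% in the naive map. No value for all shared loci was computed beside it. Contacts between chromosomes among the 2 Mb bins with a wide locus were 1.08 and 1.12 times the mean in the plasma and naive maps. Among the 500 kb bins with a wide locus in compartment A of both maps they were 1.68 in the plasma map and 1.79 in the naive map. At 5000 bases 91.7% of loci wide in plasma alone lay in A of the plasma map and 93.9% in A of the naive map, and of loci wide in naive alone 59.2% and 67.2% did.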

Other observations

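Wide peaks that had no partner in the other list numbered 143 in plasma cells and 112 in naive B cells. Their median width was 4770 bases in plasma cells and 4783 bases in naive B cells, close to that of the shared ones, and their median scores were 225 and 188 in the plasma and naive lists, against 396 and 383 for the wide shared peaks of the same lists. On chromosome X 34 of 925 plasma peaks and 43 of 1086 naive peaks had 4000 bases or more. On unplaced contigs 14 of 144 plasma peaks and 24 of 165 naive peaks did.

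The highest score of either list, 3100, which shared peaks below 4000 bases also reached, stood at 1 wide locus, chr1:24618191-24623584, in both lists at once. Its peaks covered 5324 bases in plasma cells and 5394 bases in naive B cells. Whether this position is a repeat or collects excess reads was not tested.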
